A study of Mus musculus with 4 samples.

Results

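The MHC class II genes of 4 lung tumors from KP mice were examined, 8 genes (H2-Aa, H2-Ab1, H2-Eb1, H2-DMa, H2-DMb1, H2-Oa, Cd74 and Ciita) of 39017 in the count table. Members were taken by symbol, and each symbol matched 1 row. All 4 tumors belonged to 1 group of male C57BL/6 control mice that carried a Cre-activated mutant K-ras allele over WT together with p53Fl/Fl. A further label reads heterozygous fl/wt with no gene given, and WT stands in the column names of the log2 table. The labels put the dose of lenti.PGK-Cre, given through the trachea, at 1500 viral units for a mouse. The study's methods name higher doses of this vector. PGK is a ubiquitous promoter, so recombination was not restricted to one lung cell type. Tumors were macrodissected at 22 weeks and 5 days and dissociated, and RNA was taken from the whole suspension with no sorting, so immune and stromal cells were included. In such bulk RNA, fewer cells of a type and less RNA per cell cannot be told apart.

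MHC class II molecules hold peptides from endocytosed proteins on the cell surface, where CD4 T cells read them. An alpha and a beta chain (H2-Aa with H2-Ab1 in the I-A molecule) assemble in the endoplasmic reticulum around the invariant chain Cd74, which blocks the groove until it is degraded in endosomes. H2-DM, a dimer of H2-DMa and H2-DMb1, then exchanges the remaining invariant chain fragment for peptide, and H2-O, whose alpha chain is H2-Oa, restrains H2-DM mainly in B cells and some dendritic cells. Transcription of the set depends on Ciita, a coactivator that binds no DNA itself and is recruited by the Rfx, Creb1 and NF-Y factors sitting on the X and Y boxes of class II promoters. Dendritic cells, B cells and macrophages are the professional class II cells, and alveolar type 2 cells, the surfactant-producing cells from which KP tumors mostly arise, also carry class II in the normal lung. C57BL/6 mice have the b haplotype, whose E alpha gene is defective, so that H2-Eb1 has no partner with which to form an I-E molecule.

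The promoter stretches below are shown because the class II genes share one layout, in which an X1 box lies a short distance before a Y box. They are RefSeq sequences on GRCm38.p6, read on each gene's own strand. Capitals mark TGATTGG, the Y box core with 2 more bases, and the X1 box core AGCAAC where the stretch has it. H2-Aa lies at chr17:34287852-34287933 on the minus strand, and H2-Eb1 at chr17:34305746-34305827, H2-Oa at chr17:34092274-34092355 and H2-Ob at chr17:34238786-34238867 on the plus strand.
H2-Aa: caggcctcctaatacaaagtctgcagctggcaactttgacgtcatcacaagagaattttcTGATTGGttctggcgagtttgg
H2-Eb1: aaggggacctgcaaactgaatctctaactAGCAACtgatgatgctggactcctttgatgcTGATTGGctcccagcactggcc
H2-Oa: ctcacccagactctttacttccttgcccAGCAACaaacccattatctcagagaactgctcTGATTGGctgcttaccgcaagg
H2-Ob: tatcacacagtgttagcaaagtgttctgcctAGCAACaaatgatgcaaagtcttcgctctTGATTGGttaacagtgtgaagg
Counted from the RefSeq start, which for H2-Oa lies inside the GENCODE gene, TGATTGG began 50 bases upstream in H2-Aa, 61 in H2-Eb1, 45 in H2-Oa and 59 in H2-Ob. The gap from AGCAAC to TGATTGG was 25 bases in H2-Eb1, 26 in H2-Oa and 23 in H2-Ob.

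The 250 bases before the RefSeq start were at hand for 8 class II genes, 5 of them members, and were searched on both strands. The letters TGATTGG, chosen after the sequences had been seen, were found in 7 of the 8 genes and in 7.23% of all 32851 windows, and H2-DMa was the gene without them. The shorter CCAAT, contained in TGATTGG on the opposite strand, was found in 8 of 8 and in 33.8% of all windows. In H2-DMa the window with CCAAT began at 34125268, inside the annotated gene (34119541 to 34139101). A lack of TGATTGG before the annotated start of H2-DMa was therefore not shown. The H2-DMb2 window, from 34144999, also began inside its annotated gene (34143307 to 34151555). In H2-DMb1, TGATTGG lay just past the annotated start of 34153072. The matches counted for H2-DMb2 and H2-DMb1 thus lay inside the annotated genes and not before them. AGCAAC was found in 4 of 8 (H2-Oa, H2-Ob, H2-Eb1 and H2-Eb2) against 12.2% of all windows. The X2 box core TGACG was found in 1 of 8, H2-Aa, against 17.8%. The interferon element TTCNNNGAA was found in 1 of 8, no member, against 7.02%, and the E-box CACGTG in 0 of 8 against 6.02%. These matches describe letters only.

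Total counts per tumor lay between 8151613 and 8799007, and 3 counts, the most that a count of 0 allows, corresponded to 0.330 to 0.370 CPM (a count scaled to the library total, after TMM scaling). A mean of 1 CPM or more, needed for testing across tumors, was reached by 7 of the 8, all but H2-Oa. The 8 genes together took 0.243% of all counts in tumor 1 (95% Wilson interval 0.240 to 0.247%), 0.445% in tumor 2 (0.441 to 0.450%), 0.390% in tumor 3 (0.386 to 0.395%) and 0.331% in tumor 4 (0.327 to 0.335%). The mean was 0.353% ± 0.0864 (SD, n = 4), and no 2 tumors had intervals that touched. These intervals cover counting error only.

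**Figure D1:**
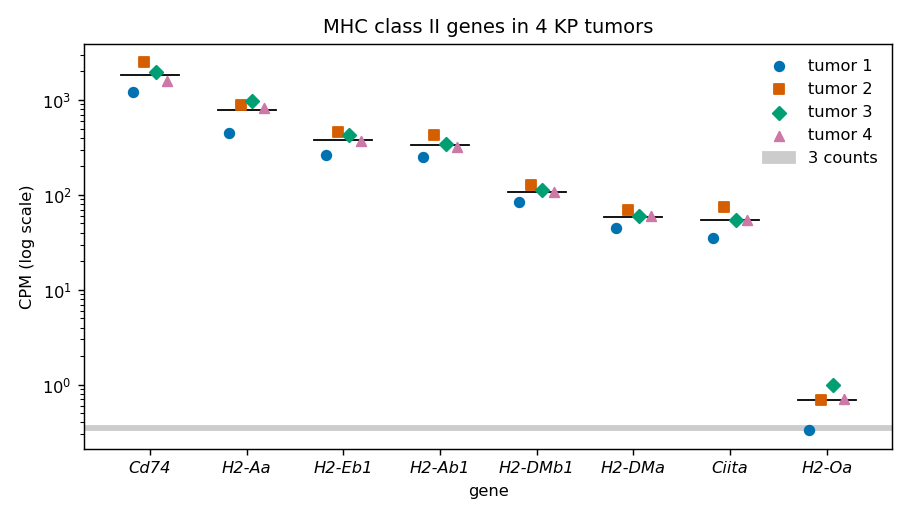
CPM of the 8 class II genes (log axis) in each of the 4 tumors, with the mean as a horizontal line and the level of 3 counts as a grey band. Cd74 is the most abundant, with 1230 to 2494 CPM, tumor 1 is the lowest for every gene, and H2-Oa sits near the band.

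The invariant chain gene Cd74 (ENSMUSG00000024610, plus strand of chromosome 18, 60803848 to 60812652, GRCm38, 9 exons) was the most abundant class II transcript. Its CPM was 1230, 2494, 1954 and 1596 in tumors 1 to 4, with a mean of 1818 ± 538 (SD, n = 4). Tumor 2 was 2.03 times tumor 1, and tumors 3 and 4 lay between them. Per kilobase of the principal transcript (1410 nt), its mean level was 1290 CPM per kb, rank 12 among 14100 annotated genes tested. Cd74 reads made up 51.2% ± 3.04 (SD, n = 4) of the counts of the 8 genes. A microRNA gene inside it, Mir5107, reached at most 2.85 CPM.

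The I-A alpha chain gene H2-Aa (ENSMUSG00000036594, minus strand of chromosome 17, 34282744 to 34287823, GRCm38, 5 exons) had 449, 894, 974 and 823 CPM in tumors 1 to 4 (mean 785 ± 232, SD, n = 4). Tumor 1 stood below the other 3, and tumor 3 was the highest, at 2.17 times tumor 1. The I-A beta chain gene H2-Ab1 (ENSMUSG00000073421, plus strand, 34257689 to 34269419, 6 exons) had 2272, 3666, 2784 and 2721 counts (mean CPM 336 ± 72.3, SD, n = 4). Its highest tumor was tumor 2, at 1.70 times tumor 1. H2-Eb1 (ENSMUSG00000060586, plus strand, 34305867 to 34316674, 6 exons), the I-E beta chain gene, had 264, 457, 429 and 366 CPM (mean 379 ± 85.6, SD, n = 4). It again ran from tumor 1 to tumor 2, over 1.73-fold. Its would-be partner H2-Ea-ps, the E alpha pseudogene of the annotation, had 0 counts in all 4 tumors, which allows up to 0.370 CPM in any of them. No E alpha transcript was detectable at this depth.

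The peptide exchange genes had lower CPM than the surface chains. H2-DMa (ENSMUSG00000037649, plus strand, 34119541 to 34139101, 6 exons) had 44.8, 69.2, 60.3 and 59.9 CPM (mean 58.6 ± 10.1, SD, n = 4). H2-DMb1 (ENSMUSG00000079547, plus strand, 34153072 to 34160230, 6 exons) had 84.1, 127, 111 and 108 CPM (mean 108 ± 17.6, SD, n = 4). Both had the narrowest spread of the tested genes, with tumor 2 over tumor 1 at 1.55-fold and 1.51-fold. H2-DMa overlaps the antisense gene Brd2 in its exons, and H2-DMb1 shares a near-identical stretch of 571 nt with its neighbor H2-DMb2, so both counts are uncertain to that extent. H2-Oa (ENSMUSG00000024334, plus strand, 34092340 to 34095234, 5 exons) had 3, 6, 8 and 6 counts, which is 0.330, 0.697, 0.987 and 0.714 CPM. It was at 3 counts in tumor 1 and just above in the others, so no fold is given.

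The coactivator gene Ciita (ENSMUSG00000022504, plus strand of chromosome 16, 10480059 to 10528418, 19 exons) had 34.9, 74.3, 53.9 and 54.0 CPM in tumors 1 to 4 (mean 54.3 ± 16.1, SD, n = 4). Tumor 2 was 2.13 times tumor 1, and tumors 3 and 4 were alike. Ciita overlaps the antisense gene Dexi, which had 10.5 to 16.8 CPM, so part of its count may be uncertain. Its count was 0.0284, 0.0298, 0.0276 and 0.0338 times that of Cd74 in the 4 tumors. It was 0.140, 0.175, 0.157 and 0.167 times that of H2-Ab1, and 0.0777, 0.0831, 0.0554 and 0.0656 times that of H2-Aa. The lowest ratio to H2-Ab1 thus fell in tumor 1 and the lowest to H2-Aa in tumor 3.

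Spread beyond counting noise was judged gene by gene with a chi-square statistic under Poisson sampling (Benjamini-Hochberg over all 14225 genes, threshold 0.05), and 7 of 7 members passed. Of all genes tested, 76.7% passed, so passing is the usual state in these libraries. The stricter rule of a highest tumor at least 2-fold above the lowest was met by 3 of 7 (H2-Aa, Cd74 and Ciita), against 28.1% of all genes. Scaled by library size alone, Cd74 had a 1.92-fold range and did not meet it. No member had 1 tumor far from the other 3 by Dixon's ratio (0 of 7), which 5.86% of all genes had. The median SD of log2 CPM was 0.35 for the 7 genes and 0.29 over all genes tested. Among the 10269 genes at 10 CPM or more on average, 12.4% had a larger SD than H2-Aa (0.51), 16.8% a larger one than Ciita (0.45) and 18.2% a larger one than Cd74 (0.43). For H2-Eb1 (0.35) and H2-Ab1 (0.32) these shares were 27.6% and 34.2%, and for H2-DMa (0.26) and H2-DMb1 (0.25) they were 45.7% and 50.2%. In edgeR, H2-Aa had a biological coefficient of variation of 28.3%, where the trend for genes of that abundance was 23.7%, and H2-DMa had 21.3%, where the trend was 24.4%.

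The direction of the spread was shared. Tumor 1 was the lowest of the 4 for 7 of 7 tested genes, as it was for 30.4% of all genes, and H2-Oa was lowest there too. Tumor 1 was lowest and tumor 2 highest for 6 of 7, against 7.7% of all genes, and H2-Aa, with tumor 3 highest, was the exception. Both counts were chosen after the values had been seen, and genes read in the same libraries are not independent. The mean of the 7 centered profiles was -0.49, 0.35, 0.14 and 0.0079 on the log2 CPM scale in tumors 1 to 4. Without tumor 1, no member kept a 2-fold range, against 17.6% of all genes, and the SD of H2-Aa fell to 0.12. Without tumor 2, 1 of 7 members kept a 2-fold range, H2-Aa, against 23.8% of all genes.

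**Figure D2:**
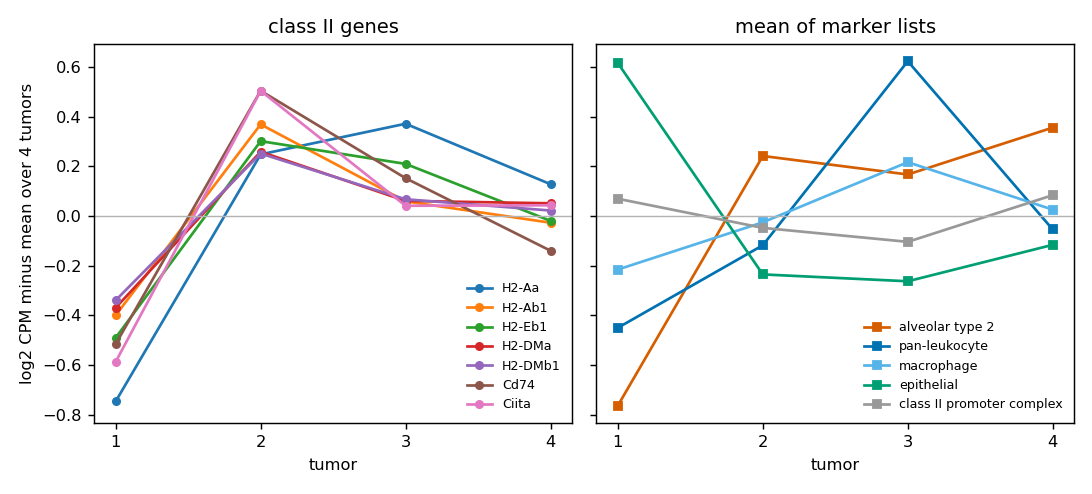
Log2 CPM minus its mean over the 4 tumors, for the 7 tested class II genes (left) and for the means of 5 marker lists (right). The class II genes all dip in tumor 1 and mostly peak in tumor 2, the alveolar type 2 and leukocyte lists are also lowest in tumor 1, and the epithelial list is highest there.

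Genes of 1 complex were compared within each tumor. The share of H2-Ab1 in the summed counts of H2-Aa and H2-Ab1 was 35.8% in tumor 1 (95% Wilson interval 34.6 to 37.0%), 32.3% in tumor 2 (31.4 to 33.1%), 26.1% in tumor 3 (25.3 to 26.9%) and 28.2% in tumor 4 (27.3 to 29.1%). None of these intervals overlapped, so the balance of the I-A chains differed between libraries by more than counting error. The share of H2-DMb1 in the summed counts of H2-DMa and H2-DMb1 was 65.2, 64.7, 64.9 and 64.3%, and all 4 intervals overlapped (from 61.8 to 67.9%). The share of H2-Eb1 beside H2-Ab1 was 51.4, 51.8, 55.5 and 53.1%, with tumor 3 the highest. H2-Aa made up 26.7 and 26.4% of its sum with Cd74 in tumors 1 and 2, and 33.3 and 34.0% in tumors 3 and 4. Tumors 1 and 2, the extremes in the level of Cd74 though not of H2-Aa, were therefore close in this ratio, and tumors 3 and 4 formed the other pair.

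**Figure D3:**
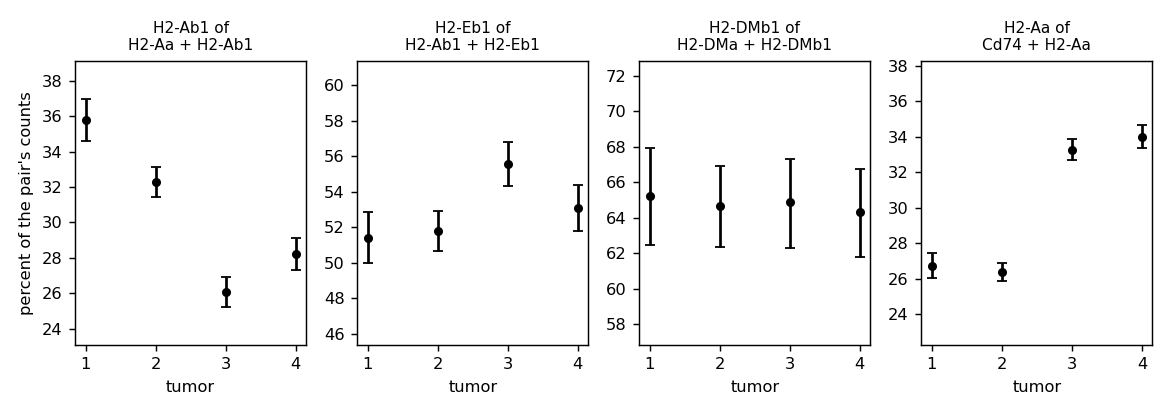
Share of the second gene in the summed counts of a gene pair, in percent, for each tumor, with 95% Wilson intervals that cover counting error only; each vertical axis spans 16 percentage points. The H2-DMb1 share stays between 64.3 and 65.2%, whereas the H2-Ab1 share beside H2-Aa runs from 26.1 to 35.8%.

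Levels of different genes were compared per kilobase, on the log2 scale, within each tumor. With the merged exons of all annotated transcripts as the length, Cd74 exceeded H2-Aa in 4 of 4 tumors by 2.40 ± 0.28 (SD, n = 4), and with the principal transcript by 0.90 ± 0.28. H2-Aa exceeded H2-Ab1 in 4 of 4 by 0.63 ± 0.29 with merged exons and by 1.29 ± 0.29 with the principal transcript, but with the longest annotated transcript, which for H2-Aa retains introns, it lay above in only 1 of 4, with a mean of -0.22. H2-Ab1 minus H2-Eb1 was -0.57 ± 0.11 with merged exons and 0.29 ± 0.11 with the principal transcript, so the order of these chains rests on the length used. H2-Aa exceeded H2-DMa by 3.56 ± 0.29 with merged exons, 4.26 with the principal and 3.02 with the longest transcript. H2-DMa minus H2-DMb1 was -1.91, -1.12 and -1.39 with these lengths, and its SD of 0.025 was the smallest among the pairs. Each of the 7 pairs had the smallest p that 4 tumors allow with merged exons (p 0.125 and adjusted p 0.125, exact sign-flip permutation of the 4 differences, two-sided), so none could pass 0.05. The pairs with H2-Oa rest on its 3 to 8 counts.

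Other class II genes on chromosome 17 were scarce. H2-DMb2, the second H2-DM beta chain gene, had 4.73, 10.5, 7.28 and 9.04 CPM, and made up 5.33 to 7.72% of the summed counts of H2-DMb1 and H2-DMb2. H2-Ob, the H2-O beta chain gene, had 1.43, 1.28, 3.83 and 1.78 CPM. H2-Eb2 had 1.10, 6.85, 3.09 and 1.07 CPM, from 9 to 59 counts. All 3 passed the noise test and had a 2-fold range, and only H2-DMb2 had both its lowest value in tumor 1 and its highest in tumor 2.

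From H2-Oa to H2-Ea-ps the class II stretch spans 252 kb and holds 19 annotated genes of the count table. Of these, 8 were tested and are no members, 5 passed the noise test and 3 had a 2-fold range, which are H2-DMb2, H2-Ob and H2-Eb2. The immunoproteasome genes Psmb8 and Psmb9 and the peptide transporter genes Tap1 and Tap2, which serve class I, lie between H2-DMb1 and H2-Ob. Psmb8 had 23.7 to 31.8 CPM, Psmb9 7.15 to 9.99, Tap1 17.3 to 19.4 and Tap2 13.2 to 17.7. Their ranges were narrow, with an SD of log2 CPM of 0.077 for Tap1 and 0.22 for Psmb9. Of the 8, 5 were lowest in tumor 1 as the members were (H2-DMb2 and these 4), but Psmb9, Tap1 and Tap2 did not pass the noise test, and with library size scaling Psmb8, Tap1 and Tap2 were lowest in tumor 2. Brd2, which encodes a chromatin reader, had 351 CPM in tumor 1 and 229 to 296 in the others.

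**Figure D4:**
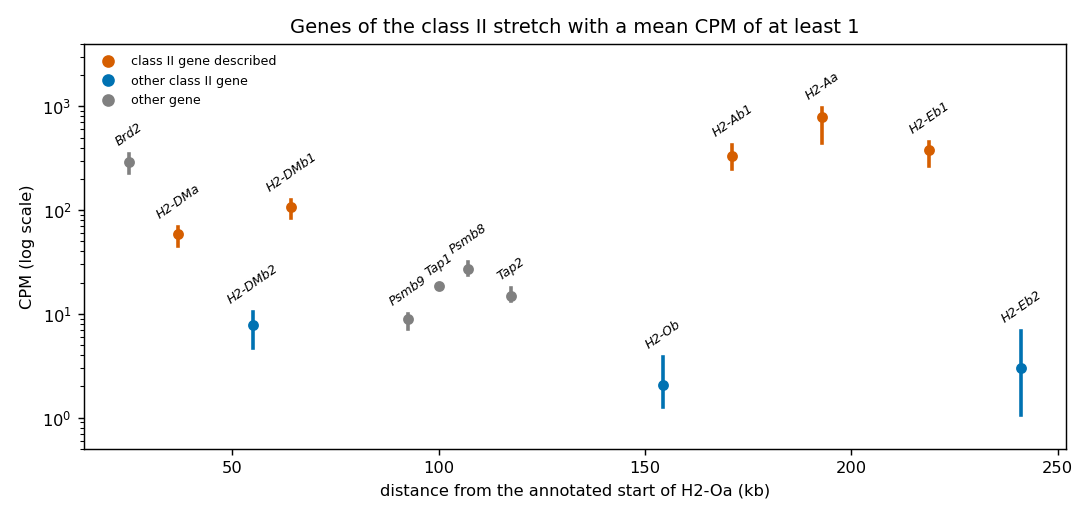
Tested genes of the class II stretch, by distance of the gene's middle from the annotated start of H2-Oa (kb) and CPM (log axis); points are means, vertical bars run from the lowest to the highest tumor. H2-Ab1, H2-Aa and H2-Eb1 lie side by side at means of 336, 785 and 379 CPM, whereas the neighboring H2-Ob and H2-Eb2 have means of 2.08 and 3.03 CPM.

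The mean of the factors that hold Ciita on class II promoters was 5.42, 5.30, 5.25 and 5.43 on the log2 CPM scale in tumors 1 to 4. Of the 7 genes of the promoter complex list, 6 passed the noise test and 0 had a 2-fold range. Rfx5, which binds the X1 box, had 37.6, 39.1, 32.0 and 42.7 CPM, with tumor 3 the lowest. Its partners Rfxap and Rfxank had 8.76 to 14.7 and 15.7 to 21.3 CPM, also lowest in tumor 3. Creb1, which binds the X2 box, had 112, 114, 136 and 119 CPM, lowest in tumor 1 and highest in tumor 3. Of the 7 genes, 2 were lowest in tumor 1 and 3 were highest in tumor 3, so the mean joins genes that differ in direction.

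Interferon gamma induces Ciita through its receptor, Jak kinases and Irf1. Ifng itself had 1, 1, 0 and 0 counts and was not detectable at this depth. Of the 9 genes of this list 7 were tested, 5 passed the noise test and 0 had a 2-fold range. Irf1 had 58.9 to 62.9 CPM in all 4 tumors, and Ifngr1 and Ifngr2 72.4 to 86.9 and 74.1 to 88.4 CPM.

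Genes that supply and turn over class II cargo differed among themselves. Of 7 peptide supply genes, 7 passed the noise test and 1 had a 2-fold range, Ctss. Ctss, the protease that cuts the last part of the invariant chain in professional class II cells, had 176, 225, 396 and 269 CPM, lowest in tumor 1 and highest in tumor 3. Ctsl, which does the same in thymic epithelium, had 458, 339, 275 and 272 CPM and was highest in tumor 1. The ubiquitin ligase genes March1 and March8, whose products send class II to degradation, had 3.85, 6.39, 14.1 and 6.78 CPM and 160, 237, 185 and 189 CPM. March8 thus had its lowest and highest values in the same tumors as 6 of the 7 class II genes.

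Of the 6 genes of the costimulation list, 5 were tested, 3 passed the noise test and 2 had a 2-fold range, Cd80 and Icosl. Cd80 and Cd86, the ligands that T cells need beside class II, had 0.697 to 3.70 and 3.45 to 5.92 CPM. Cd274, which encodes PD-L1, had 16.1, 14.4, 26.7 and 14.6 CPM. The class II receptors Cd4 and Lag3 reached at most 1.23 and 1.67 CPM.

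Cd74 is also a surface receptor for the cytokines Mif and Ddt, with Cd44 as its signalling partner. Mif had 57.0, 30.8, 22.2 and 21.9 CPM and was highest in tumor 1, where Cd74 was lowest. Cd44 had 339, 539, 492 and 409 CPM, lowest in tumor 1 and highest in tumor 2 as Cd74 was. Of the 5 genes of this list, 4 passed the noise test and 2, Mif and Cxcr2, had a 2-fold range.

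Markers of the cells that can carry class II were read in the same libraries. The alveolar type 2 list was abundant, with 8 of 8 genes tested, 8 beyond noise and 3 with a 2-fold range, and its summed level was 32860, 56505, 53158 and 60875 CPM in tumors 1 to 4. It was lowest in tumor 1, where the mean log2 CPM differed from that of the others by -1.02, beside -0.66 for the class II genes. The widest drops were in its genes with a 2-fold range, Sftpa1, Slc34a2 and Lamp3. Sftpa1 had 1956 CPM there against 6988 to 9244 in the others, Slc34a2 1847 against 5452 to 6686 and Lamp3 420 against 1867 to 2515. Sftpc, the surfactant protein C gene, had 17722, 26616, 24926 and 29617 CPM, and 6 of the 8 genes were lowest in tumor 1. Sftpb and Abca3 were lowest in tumor 3. The epithelial list (Epcam, Cdh1 and 4 keratin genes) went the other way, with a mean 0.82 above that of the others in tumor 1, except for Cdh1, which was lowest there with 842 CPM against 846 to 887.

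Leukocyte markers were detected in all 4 tumors. Ptprc, which encodes CD45, had 26.2, 35.8, 83.4 and 38.5 CPM. The summed pan-leukocyte level was 526, 832, 812 and 724 CPM in tumors 1 to 4. Of its genes, 5 of 6 were lowest in tumor 1 and 5 of 6 highest in tumor 3. The other, Lcp1, was highest in tumor 2 and made up most of the sum. The macrophage list had 8 of 8 genes tested and a summed level of 220, 241, 308 and 237 CPM. Of these genes 5 were highest in tumor 3 and 3 lowest in tumor 1. C1qa and C1qb were highest in tumor 2, and C1qa, C1qb and C1qc were lowest in tumor 3. Alveolar macrophage genes, with 5 of 5 tested, summed to 196, 215, 961 and 467 CPM. Among B cell genes 3 of 8 were tested, with a summed level of 7.81 to 28.5 CPM. The tested genes were Cd79b (4.95 to 15.1 CPM), Fcer2a (2.62 to 11.8) and Blk (0.110 to 3.21). Ms4a1, which encodes CD20 and was not tested, reached at most 1.60 CPM. Among dendritic cell genes 4 of 9 were tested, and Itgax, shared with alveolar macrophages, made up most of their 51.2 to 112 CPM. Zbtb46 had 4.29, 4.88, 5.68 and 7.97 CPM, and the other tested genes, Ccr7 and Cd209a, reached at most 2.10 and 3.21 CPM. Flt3 and Xcr1, which were not tested, reached at most 0.864 and 1.48 CPM. T and NK cell genes summed to 0.714 to 5.06 CPM over 2 of 9 genes, and endothelial genes to 180 to 244 CPM over 5 of 5. Each of the leukocyte lists except T and NK cells had its highest mean in tumor 3 and its lowest in tumor 1, though single genes differed. Of the class II genes, 6 of 7 were highest in tumor 2, as were Lcp1, C1qa and C1qb. T and NK cell genes were also highest in tumor 3 but lowest in tumor 4. The part of any of these cells in the class II levels was not tested.

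The spread of the class II genes was read again relative to 5 of these lists, a choice made after the data had been seen. Relative to the alveolar type 2 mean, H2-Aa was -1.96, -1.97, -1.77 and -2.20 on the log2 scale, and its SD went from 0.51 to 0.18. The SD of Ciita went from 0.45 to 0.27, that of H2-Eb1 from 0.35 to 0.27 and that of Cd74 from 0.43 to 0.35. It rose for the remaining genes, H2-Ab1 (0.316 to 0.320), H2-DMa (0.26 to 0.29) and H2-DMb1 (0.25 to 0.32). Relative to the pan-leukocyte mean the SD was smaller for H2-Aa (0.33) and H2-Eb1 (0.34). It was larger for H2-Ab1 (0.43), H2-DMa (0.40), H2-DMb1 (0.39), Cd74 (0.45) and Ciita (0.50). Relative to the macrophage mean the SD was smaller for 7 of 7 genes, with 0.36 for H2-Aa, 0.21 for H2-DMa and 0.20 for H2-DMb1. Relative to the dendritic cell mean it was smaller for 4 of 7, with 0.27 for H2-Aa, and larger for H2-Ab1, H2-DMa and H2-DMb1. Relative to the epithelial mean it was larger for 7 of 7, from 0.65 to 0.92. The class II genes were lowest in tumor 1, as were the means of all these lists except the epithelial one, which was highest there. A smaller or larger SD thus partly restates that dip. The same counts were not made over all genes, so they show nothing particular to the class II genes or to a cell type.

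Genes with the most similar profile were sought among 10262 others at 10 CPM or more on average, by the root-mean-square distance of centered log2 CPM to the mean class II profile over 4 tumors. The 5 nearest were Etnk1 (distance 0.017), D10Bwg1379e (0.022), Fdxacb1 (0.030), Las1l (0.031) and Mpi (0.036). Among the members themselves, H2-Eb1 was the nearest to the mean (0.045) and H2-Aa the farthest (0.19). With 4 tumors such likeness is common, since 687 of the 10262 genes (6.69%) lay nearer to the class II profile than H2-Aa did.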

How the data were processed

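RNA from 4 whole tumor suspensions (500 ng each, stranded poly(A) libraries) was sequenced by the authors as single-end reads, trimmed with Cutadapt and aligned to mm10 with HISAT2. The submitters' processing notes name featureCounts 1.4.4, and its strand setting and annotation are not given in the sources used here. The deposited raw counts per Ensembl gene are not normalized, and 156068 of 156068 values were equal in the combined and single tables. The deposited log2 table (TMM and voom by the authors) served as an alternative. Totals were scaled by TMM (edgeR 4.0.16, R 4.3.3), and log2 CPM had 0.5 added to each count. Genes at 1 CPM or more on average were tested by a chi-square test (3 degrees of freedom), checked on simulated data. There was 1 group, so no groups were compared. The labels do not say whether each tumor came from its own mouse, so p-values speak only for these 4 libraries. The chi-square test measures differences between libraries beyond counting error. With 1 library per tumor, differences of tumors and of libraries cannot be told apart. The sign-flip test asks whether within-tumor differences between genes share a direction. Positions are GENCODE M21 on GRCm38, and near-identical stretches (at least 80 nt at 97% identity) were found with BLAST 2.17.0. Of 106 list genes, 2 were matched by identifier. Alternatives were DESeq2 1.42.0 size factors, library size, filters, 2 added to each count, the deposited log2 values, other lengths and leaving out each tumor. Members and lists were chosen with earlier results of these data known, and named genes were the members, list genes in list order (up to 4, more where a count of 5 or fewer was singled out), overlapping genes and the 5 nearest profiles. Irf1 and the Psmb and Tap genes were named after their values had been seen, as were the counts of genes lowest in tumor 1, TGATTGG, the principal transcript length and the levels relative to marker lists. Promoters were at hand for 8 of 10 class II genes other than Cd74.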

Additional observations from a re-analysis of the deposited data

Results flagged for a closer look

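By Dixon's ratio, 1 tumor lay far from the other 3 in 3 of 32 results, where chance gives about 1 in 20. The alveolar type 2 list had a mean log2 CPM of 10.77 in tumor 1, below the others. The epithelial list had 9.66 in tumor 1, above the others. The endothelial list had 5.17 in tumor 3, above the others. None of the 7 tested class II genes was among these results.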

How the results depend on the processing

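DESeq2 size factors, library size alone, 2 added to each count and the deposited log2 values left the results recomputed under them within their limits. So did both other filters and the share outside the 10 most abundant genes. With library size alone, 2 of 7 members had a 2-fold range (Cd74 lost), against 28.4% of all genes. With no filter, 4 of 8 had one (H2-Oa gained), near the 49.4% of all genes. The order of H2-Ab1 and H2-Eb1 reversed, to 0.29, with the longest or the principal transcript as the length, and that of H2-Aa and H2-Ab1, to -0.22, with the longest transcript. Relative to the alveolar type 2 list, added after seeing the data, the SD of log2 CPM moved to 0.18 for H2-Aa and 0.27 for Ciita, relative to the pan-leukocyte list to 0.33 for H2-Aa, 0.40 for H2-DMa and 0.39 for H2-DMb1, and relative to the dendritic cell list to 0.27 for H2-Aa. Relative to the epithelial list it was 0.92 for H2-Aa, 0.71 for H2-Ab1, 0.76 for H2-Eb1, 0.67 for H2-DMa, 0.65 for H2-DMb1, 0.82 for Cd74 and 0.84 for Ciita. Relative to the macrophage list none moved past its limit. A 2-fold range was kept by 0 of 7 members without tumor 1 (17.6% of all genes) and 1 without tumor 2 (23.8%). It was kept by 2 without tumor 3 (16.1%) and 3 without tumor 4 (24.8%). With 1 tumor left out, the SD ran from 0.12 to 0.62 for H2-Aa, 0.21 to 0.39 for H2-Ab1, 0.17 to 0.44 for H2-Eb1, 0.12 to 0.32 for H2-DMa, 0.12 to 0.31 for H2-DMb1, 0.27 to 0.74 for H2-Oa and 0.27 to 0.55 for Ciita. No paired analysis was possible because there is 1 group. The 4 tumors cannot reach 0.05 in the sign-flip test.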
